A study of Drosophila melanogaster with 62 samples.

Results

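Axon guidance and neuronal adhesion genes encode the secreted cues, the receptors and the cell-surface proteins by which growing axons find their path and neurons recognise their partners. The set described here held 43 such genes, and the authors' early segment annotation held 12625 genes in all. The set was chosen by name with no measured value in the rule, but with earlier results of these data known. It comprised 13 immunoglobulin-type (Ig-type) and other adhesion proteins, 7 cadherin, teneurin, leucine-rich repeat and synaptic adhesion proteins, 14 receptors and 9 ligands. Of the 43 genes, 42 had segments in that annotation, and the receptor phosphatase gene Lar had none.

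The series pooled whole male embryos of Drosophila melanogaster with mutations in elav, fne or Rbp9, the 3 genes of the ELAV family, sequenced their polyadenylated RNA and compared the use of 3′ UTR segments with wild type. In early embryos (14 to 16 h) of the first experiment the single mutants elav, fne and rbp9, the double mutants elav-rbp9 and elav-fne, the triple mutant elav-fne-rbp9 and wild type had 3 libraries each. In late embryos (18 to 22 h) there were 3 elav, 4 fne, 5 elav-fne and 4 wild-type libraries. For 3 libraries of the fne-rbp9 double mutant the stage cannot be given, because their labels state the late window and point to an early table. In a second experiment, nFne mutants, elav-nFne mutants and wild type had 3 libraries each at both stages, and 2 further libraries came from heads of wild-type adult males. As background from the study, nFne denotes the nuclear form of FNE. The labels name no allele, and in a name such as elav-fne every gene named is mutated in the same animals. Whole embryos were used, so fewer neurons in a mutant and less of a long transcript per neuron cannot be told apart.

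ELAV-family proteins are RNA-binding proteins of neurons. ELAV is known to favour long 3′ UTRs in neurons by bypassing proximal cleavage sites, and it is also known to promote the neuronal last exon of the adhesion gene Nrg. A 3′ UTR holds binding sites for proteins and microRNAs, so its length can set where an mRNA goes in an axon or dendrite and how much protein it yields. Many guidance and adhesion genes are large, have several transcript ends and are expressed in neurons.

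The embryo values are the authors' own comparisons. Each table of the first experiment lists 1 entry per gene, a 3′ UTR segment or several segments, with a log2 fold (mutant over wild type) of its use relative to the rest of the gene. All entries passed the thresholds of 0.0001 for the adjusted p and -0.75 for the fold, so a gene that is not listed may be unchanged, higher, below these thresholds or untested. The fitted use scores quoted beside the folds are on a scale whose ratio is not the fold. Each comparison was fitted separately and those of a stage share their wild-type libraries, so wild-type scores of a segment differ between tables and folds are given side by side with no test of their difference. Depth per embryo library is unknown, and no value per embryo library was used, so the tissue and the mutant labels of the embryos could not be checked against marker genes. In the heads, 7 of 7 neuronal and 9 of 9 photoreceptor marker genes had at least 1 TPM (a length-scaled transcript share) in both libraries. All 4 glial and all 4 muscle marker genes did too, as did 3 of 5 genes taken as fat body markers (Lsp2, Yp3 and fbp). None of 4 testis and accessory gland genes and none of 2 ovary genes did.

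Lower use of 3′ UTR segments was listed for some of these genes in embryos mutant for elav, alone or with its paralogs. Of the 43 genes, 12 were listed in at least 1 of the 10 comparisons of the first experiment and 31 in none. Over all genes with at least 2 segments, 3.29% were listed in at least 1 comparison, and 7.54% of those whose 3′ UTR had at least 2 segments. The 12 were the Ig-type adhesion genes Bsg, Nrg, Dscam1, Fas2 and tutl, the cadherin gene CadN, the teneurin gene Ten-a, the leucine-rich repeat gene caps, the receptor genes PlexA and Ptp99A and the semaphorin genes Sema1a and Sema2b. By role, 5 of 13 Ig-type and other adhesion genes, 3 of 7 cadherin, teneurin, leucine-rich repeat and synaptic genes, 2 of 14 receptor genes and 2 of 9 ligand genes were listed, and differences between the roles were not tested. Their 40 entries were coded TE in 31 cases, LE in 8 and CE in 1, codes that the sources used here do not define.

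**Figure D1:**
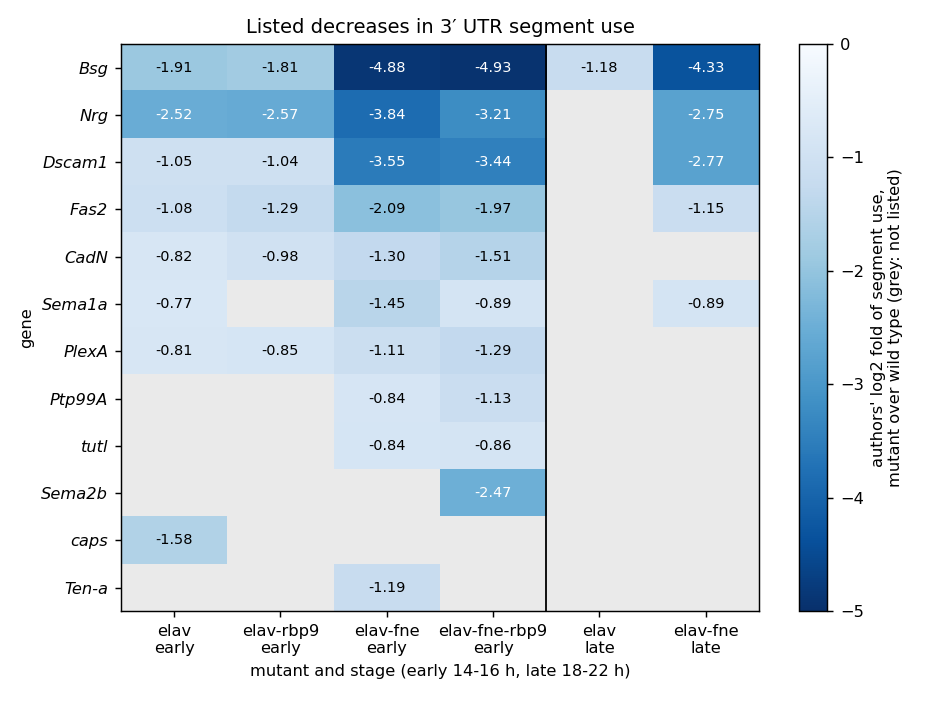
The authors' log2 folds of 3′ UTR segment use, mutant over wild type, for the 12 listed genes (down) in the 6 comparisons that listed any of them (across, early left of the line and late right of it). Grey cells were not listed. Bsg is the gene with an entry in all 6 columns, and the darkest cells are its folds of -4.88 in elav-fne and -4.93 in elav-fne-rbp9 early embryos.

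In early elav embryos 8 of the 42 genes with segments were listed (19.0%), against 1.47% of all 12624 genes with at least 2 segments. In early elav-rbp9 embryos 6 were listed (14.3%), against 1.18% of all genes. Early elav-fne and early elav-fne-rbp9 embryos each listed 10 (23.8%), against 1.86% and 2.25% of all genes. Late elav embryos listed 1 of the 42 (2.38%) and late elav-fne embryos 5 (11.9%), against 0.578% and 1.36% of all 12625 genes. None of the 42 was listed in fne early, rbp9 early, fne-rbp9 or fne late, where 0.459%, 0.0475%, 0.309% and 0.0634% of all genes were listed, so a count of 0 of 42 is near the background.

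These shares depend on the choice of the set, made with earlier results of these data known, and on which genes could be listed. Every listed gene of every table had at least 2 segments marked as 3′ UTR, and over genes with that feature the background was 3.67% in elav, 2.95% in elav-rbp9, 4.66% in elav-fne and 5.63% in elav-fne-rbp9 early embryos. The same background was 1.45% in elav and 3.41% in elav-fne late embryos, and 1.15% in fne early, 0.119% in rbp9 early, 0.773% in fne-rbp9 and 0.158% in fne late. Of the 43 genes, 39 had at least 2 such segments in the early annotation, so 25.6% of them were listed in elav-fne and in elav-fne-rbp9 and 20.5% in elav. Among the 1239 genes that also had at least 2000 UTR bases, a bound chosen after the values were seen, 15.7% were listed in elav-fne early, beside 10 of the 29 guidance and adhesion genes above that bound (34.5%). In elav early the same pair of shares was 27.6% of the 29 genes and 12.5% of all 1239, in elav-rbp9 early 20.7% and 10.4%, and in elav-fne-rbp9 early 34.5% and 17.4%. In late embryos, where 28 of the 43 genes lay above the bound, elav-fne listed 17.9% of them, beside 11.8% of all such genes. Late elav listed 1 of the 28 (3.57%), beside 4.95% of all such genes, so its count was not above this background.

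In elav, elav-rbp9 and elav-fne early embryos the median decrease of these genes was smaller than that of all listed genes, but single genes differed widely. Their log2 folds ran from -2.52 to -0.77 in elav early and from -4.88 to -0.84 in elav-fne early, per the authors' deposited tables. The median log2 fold of the listed guidance and adhesion genes was -1.06 in elav early, beside -1.41 for all listed genes, per the authors' deposited tables. Early elav-rbp9 embryos had medians of -1.17 for these genes and -1.47 for all, per the authors' deposited tables. They were -1.38 and -1.73 in elav-fne early, per the authors' deposited tables. In elav-fne-rbp9 early (-1.74, beside -1.54) and elav-fne late (-2.75, beside -1.998) the guidance and adhesion genes had the lower median, per the authors' deposited tables. Their listed segments were also the better covered ones, with a median of the mean normalised count of 330 beside 164 in elav early and 183 beside 105 in elav-fne early, per the authors' deposited tables.

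Nrg encodes Neuroglian, the fly L1-type adhesion protein that links neighbouring axons and has a neuronal form made from its own last exon. The listed segment was the last of the gene, 1838 bases of 3′ UTR at X:8553333-8555170 on the plus strand (dm6), and began within 1 base of an annotated transcript end. Of 9 transcripts in the Ensembl annotation, 1 held it, 2 had the same stop codon without it and 6 had other stop codons. Its fitted use was 18.1 in elav and 38.5 in wild-type early embryos, a log2 fold of -2.52 (adjusted p = 1e-66), per the authors' deposited table. This was the lowest fold of the 8 listed guidance and adhesion genes in that table. In elav-rbp9 early embryos the use was 14.5, against 32.1 in wild type, a fold of -2.57 (adjusted p = 1.9e-60), per the authors' deposited table. Where fne was lost as well, the use was 9.44 in elav-fne and 31.9 in wild-type early embryos, a fold of -3.84 (adjusted p = 4.5e-11), per the authors' deposited table. The elav-fne-rbp9 early fold was less low, at -3.21 (adjusted p = 7e-13; use 14.5 in the mutant and 38.2 in wild type), per the authors' deposited table. Mutant and wild-type scores were far apart in all of these fits, and the mean normalised counts lay between 112 and 204, per the authors' deposited tables. Late elav embryos did not list the gene, whereas late elav-fne embryos listed the same segment at -2.75 (adjusted p = 2.9e-27; use 11.8 in the mutant and 26.4 in wild type), per the authors' deposited table.

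Bsg encodes Basigin, an Ig-type glycoprotein of the cell surface. It had the longest 3′ UTR of the set, 8651 bases, and its listed segments in early embryos (code LE) covered 7073 of them at 2L:8109459-8116531 on the plus strand. They began within 1 base of an annotated transcript end, and 3 of 10 annotated transcripts held them, 6 having the same stop codon without them. The use was 32.1 in elav and 52.3 in wild-type early embryos, a log2 fold of -1.91, per the authors' deposited table. Beside this moderate change, elav-fne early embryos had a use of 10.8, against 43.9 in wild type, and a fold of -4.88, per the authors' deposited table. That fold ranked 15th of 235 listed genes, and the -4.93 of elav-fne-rbp9 early embryos ranked 9th of 284, per the authors' deposited tables. The adjusted p of the elav, elav-fne and elav-fne-rbp9 entries is written as 0, per the authors' deposited tables. The elav-rbp9 fold was -1.81 (adjusted p = 1.7e-29), per the authors' deposited table. Bsg was the one guidance or adhesion gene listed in late elav embryos, with a use of 29.5 in the mutant and 37.0 in wild type and a fold of -1.18 (adjusted p = 8.7e-68), per the authors' deposited table. In late elav-fne embryos the use was 14.0, against 42.1 in wild type, a fold of -4.33 (adjusted p = 2.2e-63), per the authors' deposited table. The late entries rest on another segment, 5811 bases at 2L:8110481-8116291 within the early one.

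Dscam1 encodes the hypervariable Ig-type receptor whose alternative exons give sister branches of a neuron a shared identity for self-avoidance. Its gene had 119 segments in the early annotation, the most of the set, but 2 in the 3′ UTR. The distal one, 1630 bases at 2R:7317924-7319553 on the minus strand, was the listed segment, and 1 of 75 annotated transcripts held it. In elav early embryos its use was 36.7, against 48.1 in wild type (adjusted p = 1.6e-11), per the authors' deposited table. With fne lost too, the use was 14.0 in elav-fne and 40.3 in wild-type embryos (adjusted p = 8.7e-108), per the authors' deposited table. The elav-fne-rbp9 entry was close to the elav-fne one, with a log2 fold of -3.44 (adjusted p = 3e-121; use 18.0 in the mutant and 47.7 in wild type), per the authors' deposited table. Late elav-fne embryos had a fold of -2.77 (adjusted p = 2.2e-49) at a narrower distal segment of 919 bases at 2R:7317924-7318842, with a use of 10.1 in the mutant and 23.3 in wild type, per the authors' deposited table. The elav-rbp9 fold was -1.04 (adjusted p = 4e-12), per the authors' deposited table.

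Fas2 encodes Fasciclin 2, an NCAM-like homophilic protein that bundles axons. Its listed segment was its most distal one, 556 bases at X:4132887-4133442 on the minus strand, the same at both stages, and was held by 1 of 7 annotated transcripts. The use was 19.0 in elav and 26.6 in wild-type early embryos, a log2 fold of -1.08 (adjusted p = 6.6e-26), per the authors' deposited table. The elav-rbp9 early fold was -1.29 (adjusted p = 1.4e-16), per the authors' deposited table. The combined mutants had the lower values, -2.09 in elav-fne (adjusted p = 1.5e-43; use 10.8, against 21.4 in wild type) and -1.97 in elav-fne-rbp9 (adjusted p = 6.2e-57), per the authors' deposited tables. Late elav-fne embryos had a fold of -1.15 (adjusted p = 1.9e-13; use 10.9 in the mutant and 15.7 in wild type), per the authors' deposited table.

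tutl encodes Turtle, an Ig-type protein of axon and dendrite patterning, and its 2 entries concern different 3′ UTRs. The elav-fne early entry was a segment of 1615 bases (code TE) at 2L:4321743-4323357, with a use of 35.3 in the mutant and 43.7 in wild type and a log2 fold of -0.84 (adjusted p = 4.5e-27), per the authors' deposited table. The elav-fne-rbp9 early entry was a segment of 1435 bases (code LE) at 2L:4314616-4316050, held by 1 of 10 annotated transcripts, the others having another stop codon. There the use was 17.8 in the mutant and 23.3 in wild type, a fold of -0.86 (adjusted p = 1.3e-05), per the authors' deposited table. Both folds stood near the threshold of the tables.

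**Figure D2:**
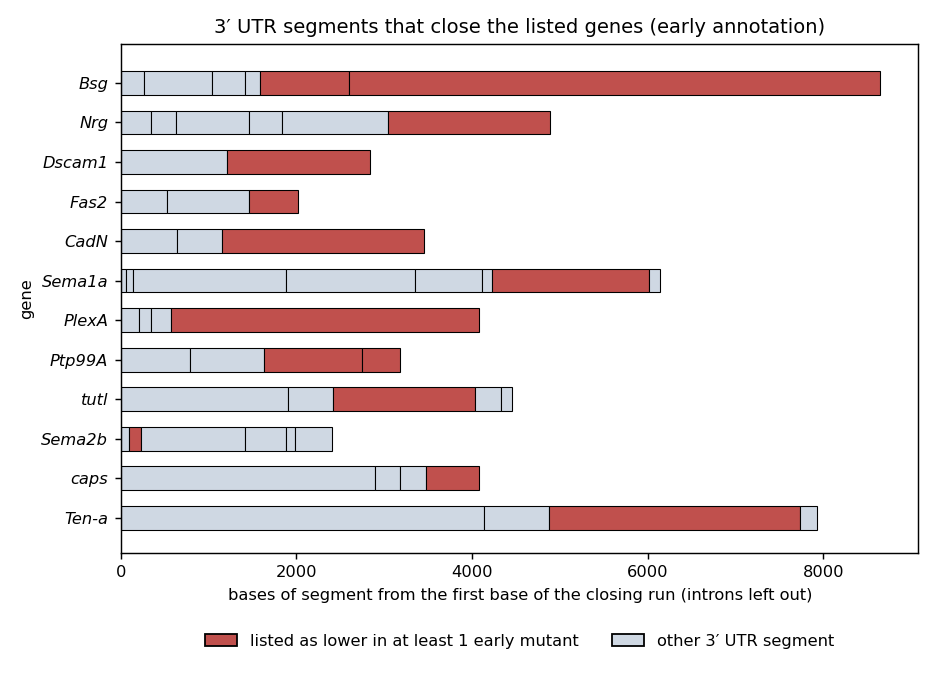
The run of 3′ UTR segments that closes each of the 12 listed genes in the early annotation, in bases from its first base, 5′ end on the left. Segments listed as lower in at least 1 early mutant are red, and they reach the far end in 8 of the 12 genes, among them Bsg (7073 of 8651 bases) and PlexA (3509 of 4083). The LE segment of tutl lies outside its closing run and is not drawn.

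CadN encodes N-cadherin, a homophilic protein by which photoreceptor axons choose their target layer. The listed segment was the last, 2298 bases at 2L:17647053-17649350 on the minus strand, and 4 of 12 annotated transcripts held it while 8 had the same stop codon without it. Its use was 49.1 in elav and 59.0 in wild-type early embryos, a log2 fold of -0.82 (adjusted p = 2.2e-06), per the authors' deposited table. It was the best covered listed segment of the set, with a mean normalised count of 760 in that comparison, per the authors' deposited table. The folds of the other early mutants were -0.98 in elav-rbp9 (adjusted p = 8.6e-05), -1.30 in elav-fne (adjusted p = 5.8e-29) and -1.51 in elav-fne-rbp9 (adjusted p = 1.6e-48), per the authors' deposited tables. In elav-fne-rbp9 the use was 38.2, against 54.7 in wild type, per the authors' deposited table. No late table of the first experiment listed the gene.

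Ten-a encodes a teneurin, a transmembrane protein that matches synaptic partners in the olfactory system, and was listed once. The segment was 2856 bases at X:12332166-12335021 on the plus strand, it began within 1 base of an annotated transcript end, and 2 of 11 annotated transcripts held it. Its use was 29.7 in elav-fne and 40.8 in wild-type early embryos, a log2 fold of -1.19 (adjusted p = 2.6e-06), per the authors' deposited table. caps encodes the leucine-rich repeat protein Capricious of target recognition. In the first experiment it was listed in elav early embryos and in no combined mutant. There the use was 12.7 in elav and 21.3 in wild type, a fold of -1.58 (adjusted p = 2e-15), per the authors' deposited table. Its segment, 611 bases at 3L:13279032-13279642 on the plus strand (code LE), was held by all 4 annotated transcripts, which share 1 end, so its boundary comes from the authors' segmentation.

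Among the receptors, PlexA encodes Plexin A, which receives transmembrane semaphorins. Its listed segment took up 85.9% of its closing 3′ UTR run, 3509 bases at 4:1009895-1013403 on the minus strand, and 1 of 4 annotated transcripts held it. The use was 44.2 in elav and 53.7 in wild-type early embryos, a log2 fold of -0.81 (adjusted p = 2e-12), per the authors' deposited table. The further early folds were -0.85 in elav-rbp9 (adjusted p = 4.5e-07), -1.11 in elav-fne (adjusted p = 9.9e-20) and -1.29 in elav-fne-rbp9 (adjusted p = 1.7e-33), per the authors' deposited tables. In elav-fne-rbp9 the use was 37.0, against 50.8 in wild type, per the authors' deposited table. Ptp99A encodes a receptor tyrosine phosphatase of motor axons and was listed in early embryos of elav-fne and of elav-fne-rbp9, and not in late elav-fne embryos. Its segments, 1546 bases at 3R:29485586-29487131 on the plus strand, overlap CG2321 on the other strand, and the libraries were stranded per the labels. The use was 11.4 in elav-fne and 15.9 in wild-type early embryos, a fold of -0.84 (adjusted p = 4.8e-07), per the authors' deposited table. In elav-fne-rbp9 early embryos the use was 20.6, against 28.5 in wild type, a fold of -1.13 (adjusted p = 8.4e-34), per the authors' deposited table.

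Among the ligands, Sema1a encodes the transmembrane semaphorin that repels axons through Plexin A and is also a receptor itself. The early entry was 1791 bases at 2L:8670127-8671917 on the plus strand, and 3 of 7 annotated transcripts held it. The use was 32.2 in elav and 39.7 in wild-type early embryos, a log2 fold of -0.77 (adjusted p = 1e-40), per the authors' deposited table. That was the smallest decrease of the 8 genes in that table. In elav-fne early embryos the use was 20.5, against 31.5 in wild type, a fold of -1.45 (adjusted p = 3.7e-54), per the authors' deposited table. The elav-fne-rbp9 fold was nearer to that of elav, at -0.89 (adjusted p = 8.3e-19), per the authors' deposited table. Late elav-fne embryos had a fold of -0.89 (adjusted p = 2.8e-41; use 19.6 in the mutant and 25.0 in wild type) at a segment of 1772 bases at 2L:8670015-8671786, per the authors' deposited table. Sema1a was not listed in elav-rbp9.

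Sema2b encodes a secreted semaphorin that binds Plexin B, and its entry was of another kind. In elav-fne-rbp9 early embryos a segment of 132 bases (code CE) at 2R:16429331-16429462, near the start of the 3′ UTR, had a use of 3.76 in the mutant and 8.80 in wild type, per the authors' deposited table. The log2 fold was -2.47 (adjusted p = 7e-09), per the authors' deposited table. Of 4 annotated transcripts, 2 held the segment and 2 had the same stop codon without it, so the segment does not extend the distal end.

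**Figure D3:**
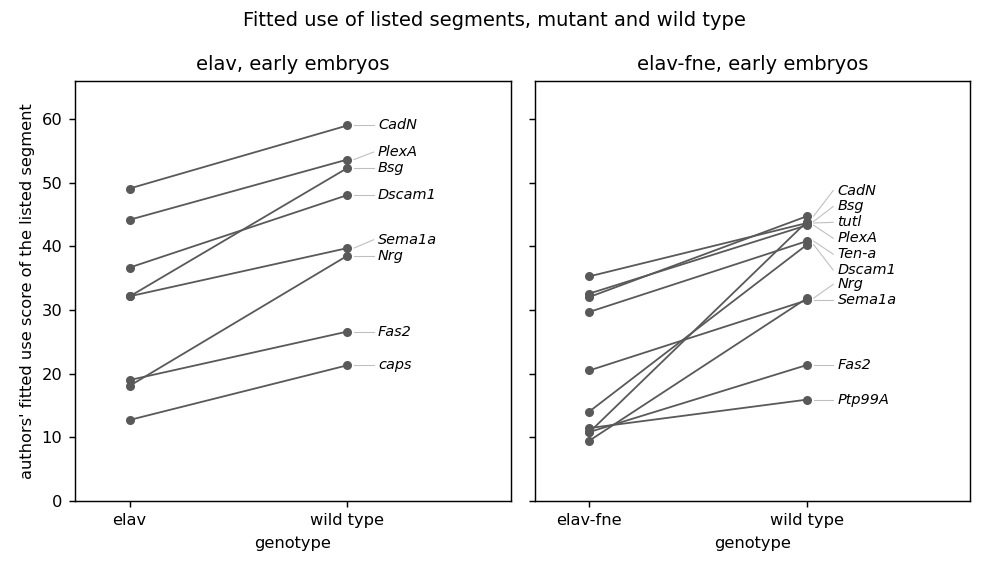
The authors' fitted use score of each listed segment in the mutant (left of each panel) and in wild type (right), for elav (8 genes) and elav-fne (10 genes) early embryos. Every line rises to the right, since the tables hold decreases. Bsg, Nrg and Dscam1 have the steepest lines in elav-fne, where their mutant scores lie between 9.44 and 14.0.

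Set side by side over the early mutants, 6 genes were listed in all 4 early comparisons that lack elav, namely Bsg, Nrg, Dscam1, Fas2, CadN and PlexA. All 6 had lower log2 folds in elav-fne and in elav-fne-rbp9 than in elav, per the authors' deposited tables. The distance was widest for Bsg (-4.88 in elav-fne and -1.91 in elav) and narrowest for PlexA (-1.11 in elav-fne and -0.81 in elav), per the authors' deposited tables. Of the 6, Bsg, CadN and PlexA had their lowest fold in elav-fne-rbp9 and Nrg, Dscam1 and Fas2 in elav-fne, per the authors' deposited tables. The tables share wild-type libraries, so these orders were not tested.

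The second experiment gave values for 8 of the 43 genes, the same 8 that the elav early list held, because its tables cover a fixed set of 174 genes from that list. Each value is a weighted log2 fold over the gene's listed segments with the smallest adjusted p over them. In elav-nFne early embryos 6 of the 8 genes were lower at an adjusted p under 0.05, beside 82.1% of all 173 genes with a value. In nFne early embryos 0 of the 8 were, beside 2.89% of all. In late embryos 7 of 8 were lower in elav-nFne and 0 of 8 in nFne, beside 90.7% and 14.5% of all. The counts for these genes were near the background in every table.

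Nrg and Bsg had the lowest folds of the 8 in elav-nFne early embryos, -2.98 for Nrg (adjusted p = 4.3e-16) and -2.07 for Bsg (adjusted p = 5.8e-61), per the authors' deposited table. With elav intact, nFne early embryos had folds of 0.15 for Nrg (adjusted p = 0.96) and 0.20 for Bsg (adjusted p = 0.56), per the authors' deposited table. Neither of these passed. Late elav-nFne embryos had folds of -1.75 for Nrg (adjusted p = 3.6e-13) and -1.91 for Bsg (adjusted p = 9.1e-191), per the authors' deposited table. The adhesion gene Dscam1 had -1.90 (adjusted p = 2.9e-05) in elav-nFne early and -0.91 (adjusted p = 2.1e-11) in elav-nFne late embryos, per the authors' deposited tables. Fas2 had -1.35 (adjusted p = 0.0062) and -0.86 (adjusted p = 0.0021) at the same stages, per the authors' deposited tables. The receptor gene PlexA had -1.03 (adjusted p = 0.012) and -0.84 (adjusted p = 1.4e-06), per the authors' deposited tables.

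The remaining genes passed at 1 stage. CadN had -1.72 (adjusted p = 0.079) in elav-nFne early and -0.92 (adjusted p = 8.2e-06) in elav-nFne late embryos, per the authors' deposited tables. For Sema1a the values were -1.48 (adjusted p = 0.16) and -0.33 (adjusted p = 0.015), per the authors' deposited tables. caps passed early, with -1.92 (adjusted p = 0.011), and not late, with -0.58 (adjusted p = 0.53), on mean normalised counts of 50.04 and 35.9, per the authors' deposited tables. These were the lowest counts of the 8 genes in each elav-nFne table. In nFne embryos the folds of the 8 genes ran from -0.66 to 0.20 early (adjusted p from 0.56 to 1) and from -0.80 to 0.00 late (adjusted p from 0.11 to 0.89), per the authors' deposited tables. The median over the 8 genes was -1.81 in elav-nFne early, -0.14 in nFne early, -0.89 in elav-nFne late and -0.35 in nFne late, per the authors' deposited tables. The same medians over all genes were -1.84, -0.15, -1.43 and -0.37, per the authors' deposited tables, so the guidance and adhesion genes stood apart, if anywhere, in a smaller late decrease in elav-nFne, a difference that was not tested.

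**Figure D4:**
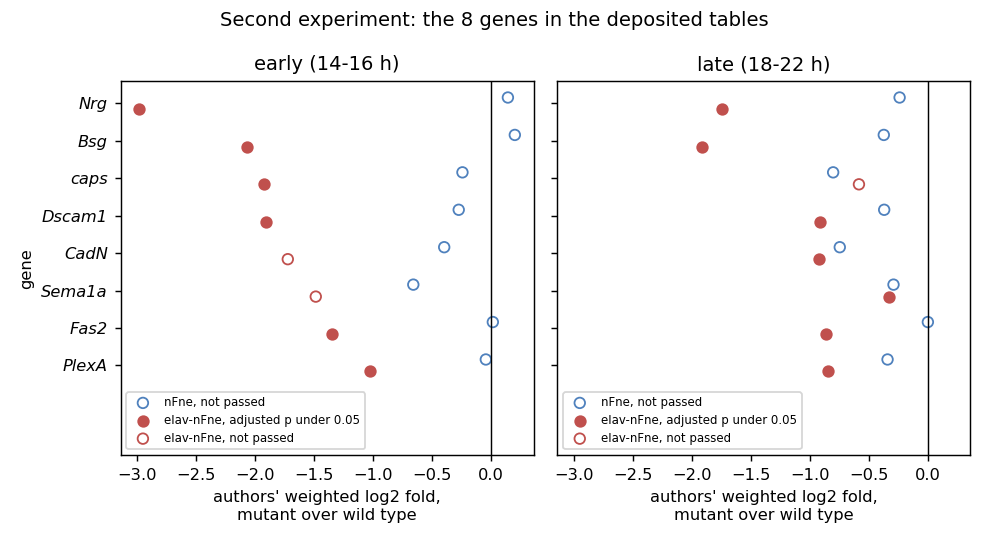
The authors' weighted log2 folds, mutant over wild type, of the 8 genes in the second experiment, early on the left and late on the right. Filled points passed an adjusted p of 0.05 and open points did not. The elav-nFne folds (red) lie between -2.98 and -1.03 early, left of the nFne folds (blue), which lie between -0.66 and 0.20. In late embryos caps is the gene whose nFne fold is the lower one.

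The 31 genes that no table listed include those for Slit, both Netrins and the 3 Robo receptors. The 42 genes with segments had a median of 3090 UTR bases, beside 757 over the 11544 genes of the annotation with any, and a median of 17 segments, beside 4 per gene overall. The 12 listed genes had a median of 4195 UTR bases (2406 to 8651), and the 30 unlisted genes with segments a median of 2522 (550 to 7220). The 2 ranges overlap over most of their length, and a gene needs a second UTR segment to be listed at all. The genes robo1, beat-Ia and Cont had 1 UTR segment each. Many UTR bases were also found among unlisted genes, with 7220 in side, 6515 in Dscam2 and 5366 in NetB. In Dscam2 they are spread over alternative ends, and its closing run of UTR segments had 4308. For 15 of the 42 genes the early and late annotations differed in the number of segments, and for all 42 they held the same number of UTR bases.

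Of the unlisted Ig-type and other adhesion genes, the 3 Dscam1 paralogs are homophilic proteins of the same family, and Dscam2 acts in the tiling of visual system axons. Dscam2 had 34 segments, 10 of them in the 3′ UTR, with 6515 UTR bases, and 23.4 and 25.6 TPM in the 2 head libraries. Dscam3 had 41 segments, 6 of them in the 3′ UTR, with 1625 UTR bases, and 10.5 and 11.9 TPM. Dscam4 had 39 segments, 4 of them in the 3′ UTR, with 1655 UTR bases, and 14.9 and 16.8 TPM. In the early annotation Dscam1 had 2 UTR segments, fewer than each paralog, and in the late annotation it had 5, more than the 3 of Dscam4. Nrt, which encodes the transmembrane protein Neurotactin, had 7 segments, 4 in the 3′ UTR, 3036 UTR bases, and 11.6 and 12.6 TPM. Fas1, an adhesion protein with fasciclin domains, had 21 segments, 3 in the 3′ UTR, 2660 UTR bases, and 509 and 495 TPM, the highest head level of the 43 genes. Fas3, a homophilic Ig-type protein of some muscles and motor axons, had 15 segments, 9 in the 3′ UTR, 4544 UTR bases, and 17.2 and 17.9 TPM. ed, which encodes the adhesion protein Echinoid, had 11 segments, 3 in the 3′ UTR, 2176 UTR bases, and 30.2 and 28.1 TPM. Cont, the contactin of septate junctions, had 8 segments, 1 in the 3′ UTR, 550 UTR bases, and 24.0 and 24.7 TPM.

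Of the unlisted synaptic adhesion genes, Ten-m, the second teneurin, had 13 segments, 2 in the 3′ UTR, 4836 UTR bases, and 32.9 and 33.3 TPM. Nrx-1, the presynaptic neurexin, had 22 segments, 4 in the 3′ UTR, 4757 UTR bases, and 50.9 and 51.7 TPM. Its postsynaptic partners, the neuroligins, had fewer UTR segments. Nlg1 had 14 segments, 2 in the 3′ UTR, 3162 UTR bases, and 3.25 and 3.29 TPM. Nlg2 had 16 segments, 2 in the 3′ UTR, 1692 UTR bases, and 21.9 and 23.3 TPM.

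Of the unlisted receptor genes, the Slit receptors robo1, robo2 and robo3 keep axons from the midline and place them in lanes. robo1 had 19 segments, 1 in the 3′ UTR, 2789 UTR bases, and 17.0 and 17.2 TPM. robo2 had 15 segments, 2 in the 3′ UTR, 2547 UTR bases, and 3.91 and 4.05 TPM. robo3 had 14 segments, 3 in the 3′ UTR, 3949 UTR bases, and 10.2 and 10.9 TPM. The Netrin receptors are Frazzled, which attracts, and Unc-5, which repels. fra had 13 segments, 2 in the 3′ UTR, 1295 UTR bases, and 7.88 and 8.13 TPM. unc-5 had 13 segments, 2 in the 3′ UTR, 2458 UTR bases, and 8.56 and 8.98 TPM. PlexB, the receptor of secreted semaphorins, had 6 segments, 2 in the 3′ UTR, 648 UTR bases, and 7.83 and 8.43 TPM, and so had a far shorter 3′ UTR than PlexA with 4083 bases. Eph, the Ephrin receptor, had 22 segments, 7 in the 3′ UTR, 2497 UTR bases, and 28.9 and 32.4 TPM. drl, which encodes the Wnt5 receptor Derailed, had 6 segments, 3 in the 3′ UTR, 996 UTR bases, and 10.6 and 11.7 TPM. The remaining receptor phosphatases act in motor axon choice. Lar, without segments, had 2.61 and 2.67 TPM. Ptp10D had 21 segments, 5 in the 3′ UTR, 3304 UTR bases, and 17.7 and 16.2 TPM. Ptp69D had 15 segments, 3 in the 3′ UTR, 649 UTR bases, and 6.99 and 8.02 TPM. beat-Ia, which lets motor axons leave their bundle and binds Sidestep, had 9 segments, 1 in the 3′ UTR, 1209 UTR bases, and 7.99 and 8.40 TPM.

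Of the unlisted ligand genes, sli encodes the midline repellent Slit and had 26 segments, 3 in the 3′ UTR, 3971 UTR bases, and 26.1 TPM in each head library. The Netrins attract axons to the midline. NetA had 9 segments, 2 in the 3′ UTR, 995 UTR bases, and 1.49 and 1.37 TPM, the lowest head level of the set. NetB had 17 segments, 4 in the 3′ UTR, 5366 UTR bases, and 12.8 and 12.7 TPM. Sema1b, a transmembrane semaphorin, had 11 segments, 3 in the 3′ UTR, 1670 UTR bases, and 26.3 and 24.8 TPM. Sema2a, a secreted one, had 20 segments, 2 in the 3′ UTR, 1131 UTR bases, and 16.3 and 15.8 TPM. Both semaphorins that were listed had longer 3′ UTRs, 6142 bases in Sema1a and 2406 in Sema2b. Ephrin, the ligand of Eph, had 9 segments, 3 in the 3′ UTR, 3144 UTR bases, and 22.1 and 23.1 TPM. side, whose product Sidestep attracts motor axons to muscle, had 24 segments, 6 in the 3′ UTR, 7220 UTR bases, and 7.31 and 7.95 TPM.

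In the heads, all 43 genes had at least 1 TPM, as did 51.6% of the 17753 genes with a head value, and 28 of the 43 lay above 12.6 TPM, the median of the genes at 1 TPM or more. The 12 listed genes had a median of 21.8 TPM, with Dscam1 lowest (7.31 and 6.87 TPM) and tutl highest (63.6 and 70.2 TPM). Bsg had 45.4 and 45.3 TPM, Nrg 29.4 and 29.6, Fas2 24.2 and 24.3, Ten-a 23.0 in each, caps 21.8 and 22.2, and PlexA 21.0 and 22.2. Ptp99A had 20.9 and 21.7 TPM, CadN 16.6 and 17.9, Sema1a 16.9 and 17.3, and Sema2b 15.5 and 15.1. The 31 unlisted genes had a median of 15.9 TPM, between 1.43 for NetA and 502 for Fas1 as means of the 2 libraries, so the levels of listed and unlisted genes overlapped. The SD of the 2 libraries was at most 9.67% of the mean for any of the 43 genes. The values of all genes summed to 360087 and 365410 TPM in the 2 libraries, less than the full TPM scale. Head levels are of adult tissue and give no level in the embryos.

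**Figure D5:**
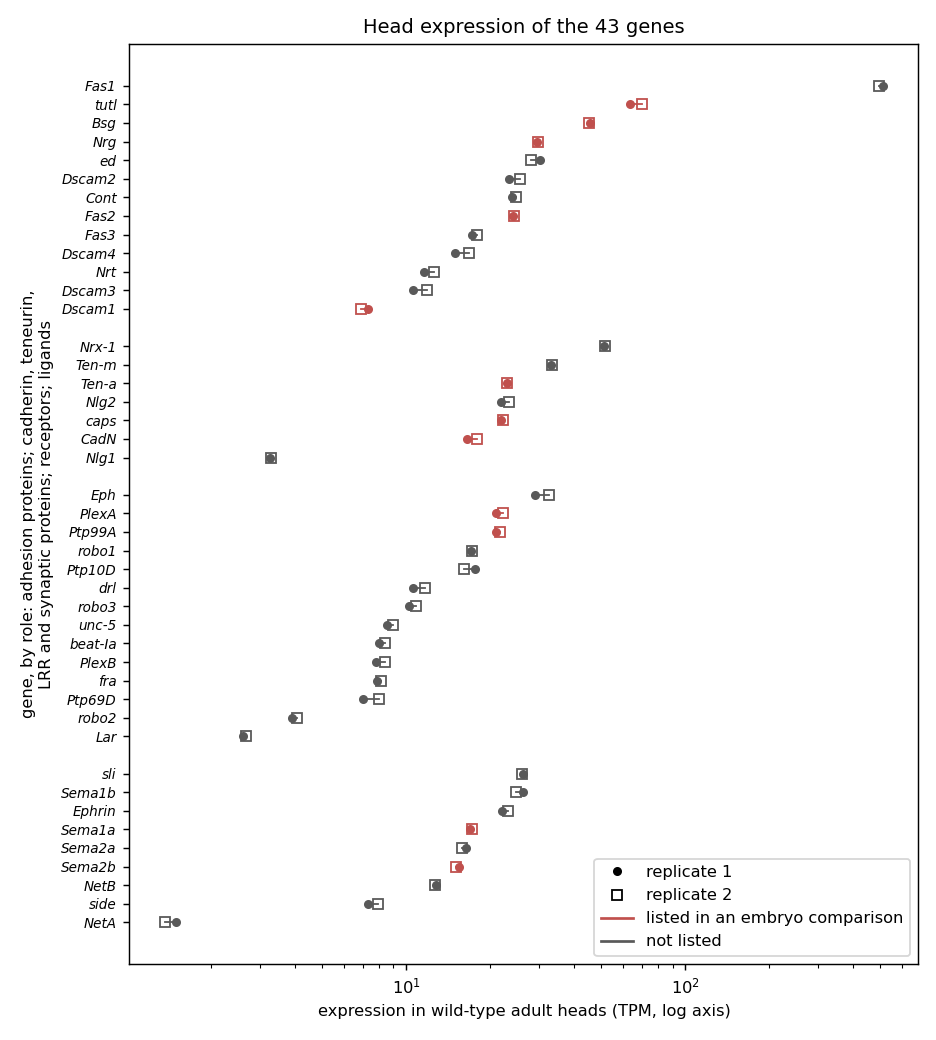
Expression of the 43 genes in wild-type adult heads in TPM on a log axis, by role (down the page: adhesion proteins; cadherin, teneurin, leucine-rich repeat and synaptic proteins; receptors; ligands). Filled and open symbols are replicates 1 and 2, red for the 12 genes listed in an embryo comparison. Red genes are spread between 6.87 and 70.2 TPM, among the unlisted ones.

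Around these genes, 2 further lists of the same pathways were counted. Both were compiled with earlier results of these data known, so their shares are no unbiased measure of the pathways. Of 77 further recognition proteins, such as the Beat, Side, Dpr and DIP families, 71 had at least 2 segments. In any table, 2 of the 71 were listed, beside 3.29% of all genes with at least 2 segments. Toll-6, a Toll-family receptor of cell recognition, had a log2 fold of -1.37 in elav-fne and -0.83 in elav-fne-rbp9 early embryos, per the authors' deposited tables. side-VIII, an Ig-type relative of side, had -1.06 in elav-fne and -0.86 in elav-fne-rbp9 early embryos, per the authors' deposited tables. The 2 of 71 in each of these mutants (2.82%) stand near the 1.86% and 2.25% of all genes.

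Of 42 genes for ligand processing and intracellular effectors, 40 had at least 2 segments and 9 were listed in any table. The share listed in any was 3.29% of all genes with at least 2 segments, and 7.54% of those with at least 2 UTR segments. The elav early and elav-rbp9 early tables each listed 5 of the 40 (12.5%), elav-fne early 6 (15.0%) and elav-fne-rbp9 early 7 (17.5%), beside 1.47%, 1.18%, 1.86% and 2.25% of all genes in the same order. Late elav embryos listed 3 (7.5%) and late elav-fne embryos 5 (12.5%), beside 0.578% and 1.36% of all genes. Over genes above the UTR bound, 12.5%, 10.4%, 15.7% and 17.4% were listed in the same early mutants, near the shares of this list. In late elav and late elav-fne embryos that background was 4.95% and 11.8%. The list itself was not restricted to genes above the bound. The lowest fold in elav-fne early was that of nmo, which encodes the kinase Nemo, at -4.52 (adjusted p = 3e-134), per the authors' deposited table. It was followed by sm, an RNA-binding protein of the hnRNP L type, at -4.19 (adjusted p = 3.2e-98), per the authors' deposited table. Pak, a kinase that acts with Dock in axon guidance, had -2.69 (adjusted p = 5.6e-33), per the authors' deposited table. With elav intact, this list had 3 entries in fne early (7.5%) and 1 in fne-rbp9 (2.5%), beside 0.459% and 0.309% of all genes. Over genes above the UTR bound the backgrounds were 2.34% and 1.05%. The entries were sm (-1.23), kuz (-0.81), which encodes the ADAM protease Kuzbanian, and the kinase gene Src42A (-0.76) in fne early, and sm (-0.75) in fne-rbp9, genes named after their values were seen, per the authors' deposited tables.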

How the data were processed

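RNA of pooled embryos and of adult heads was sequenced, per the labels. For embryos the authors deposited comparisons only: a log2 fold of segment use, a p-value and adjusted p-value, a mean normalised count (signal) and fitted use scores, per the file headers. Not given in the sources used here are the tool, its settings and the number of features tested. Head expression was deposited in TPM by the authors. Segments were written with rtracklayer 1.40.5, per the file headers, and their coordinates are dm6, per the submitters' processing notes. Nothing says that replicates came from separate collections, so the p-values measure the spread between libraries, which may be technical.

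Genes were matched by gene ID. UTR bases are the union of segments marked as 3′ UTR, and listed segments were set beside the annotation of Ensembl release 115, whose assembly is the same. No test was run here. Backgrounds are genes with at least 2 segments. The steps that merge intervals and find the closing run of UTR segments were checked on small made-up inputs. The counts of listed genes were not checked in this way. Members, role groups and further lists were chosen with earlier results of these data known. All listed members were named, and from each further list up to 3 genes with the lowest fold in elav-fne early. The effector genes kuz, Src42A, comm and fax were named after their values were seen. Head means are of 2 libraries. The alternatives changed thresholds, backgrounds, UTR definitions, pseudocount and head libraries. iCLIP libraries were not analysed here. Python 3.11.15, numpy 2.4.6, pandas 2.3.3 and matplotlib 3.10.9 were used.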

Additional observations from a re-analysis of the deposited data

How the results depend on the processing

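With a log2 fold of -1 or lower required, elav early listed 5 genes in place of 8, and with an absolute fold of at least 1 elav-nFne late called 2 in place of 7. An adjusted p under 1e-06 (first experiment) or under 0.01 (second) kept each count within 1.5 times. Over the genes listed in both elav early and elav-fne early, the medians of the second experiment were -0.042 in nFne early, -1.72 in elav-nFne early, -0.34 in nFne late and -0.91 in elav-nFne late. The median 3′ UTR length was 2815 bases over the closing run of UTR segments and, in a check added after seeing the data, 2437.5 bases over the Ensembl UTRs, against 3090. A further check added after seeing the data left out CE entries and first UTR segments, and each of the 10 counts stayed within 1.5 times. Leaving out either head library left the other alone, with medians of 17.27 and 17.01 TPM against 17.12 over both. With 2 libraries this restates the replicate spread and is no further check. A minimum of 5 TPM left 39 of the 43 genes, and no minimum 43. The late annotation gave the same median UTR length, although UTR segment numbers differed for some genes. Sequence at segment starts was planned and not run, since no genome was at hand. No paired analysis was possible because only the authors' comparisons, and no values per embryo library, were used. The count of listed genes is limited by the unknown depth and by the thresholds of the tables.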

Other observations

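comm, which encodes the protein that keeps Robo off the surface of axons before they cross the midline, was among the 9 listed effectors, and is named after its values were seen. Its log2 folds were -3.26 in elav early, -3.37 in elav-fne-rbp9 early and -3.17 in elav late, per the authors' deposited tables. The elav-rbp9 and both elav-fne lists did not hold it. fax, a gene of axon tracts also named after its values were seen, had -0.76 in elav-fne early and -0.80 in elav-fne-rbp9 early, per the authors' deposited tables.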
